A study of Homo sapiens with 9 samples.

Results

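The spliceosome genes of Caki-1 cells were followed in 9 RNA-seq libraries as sums over the transcripts listed for each gene, and then transcript by transcript. Members were the genes whose pathway text in the deposited table names the KEGG pathway Spliceosome, with all rows of 1 gene number summed. The rule found 41 of the 6819 genes of the table, and used no measured value. These 41 genes have 105 listed transcripts of 20909, of which 82 have curated and 23 have predicted RefSeq names. For 22 genes a single transcript is listed and for 19 there are more, up to 12 for DHX16. Among the 105, 15 are further copies, placed elsewhere in the annotation, of DDX39B, DHX16 and PUF60 transcripts, and carry no pathway text of their own.

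Caki-1 is an established human line from a clear cell renal carcinoma. The study asks what TAF1D does in this cancer, and lowered the gene in Caki-1 with short hairpin RNA. TAF1D is part of SL1, which places RNA polymerase I on ribosomal RNA genes. The 3 control libraries (genotype WT, marked NC in the titles) stand against 3 SH1 and 3 SH3 libraries (both genotype TAF1D knockdown). The labels give no hairpin sequence, vector, time or clone number, no treatment of the control cells beyond the genotype, and no statement on whether libraries 1 to 3 are separate cultures. The p-values therefore cover the spread between these libraries, which may be technical. TAF1D was not analysed here, so no check of the knockdown is given.

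The spliceosome removes introns from messenger RNA precursors. U1 binds the 5′ splice site, U2 and its partners bind the branch point and the 3′ splice site, and the U4/U6.U5 tri-snRNP then joins. Rearrangement by RNA helicases and the Prp19 complex gives the catalytic machine, while SR and hnRNP proteins steer which sites are used. Most of these proteins are made in every dividing cell, and many of their own genes are spliced in several forms. Levels below are FPKM (fragments scaled by transcript length and library size), which correct for transcript length. Tests use the deposited estimated counts, scaled to the listed transcripts alone, so log2 fold changes and ratios of FPKM need not match.

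The table is a selection of transcripts. All 20909 differ by at least 2-fold in estimated count between control 1 and SH1 1, whereas 51.5% to 64.9% do so in the other 35 pairs of libraries. Comparisons with control of SH1, or of both knockdown groups averaged, hold the selected pair, so their values draw in part on the selection. SH3 against control holds control 1 and SH3 against SH1 holds SH1 1, so these are not free of it. For the 22 genes with 1 listed transcript, a difference of at least 2-fold between control 1 and SH1 1 is given. Of the 105 spliceosome transcripts, 52 were higher and 53 lower in SH1 1. A sum is therefore a sum over listed transcripts and not the whole output of a gene, and an order of genes by it holds for their listed transcripts alone: of 453 RefSeq transcripts of these 41 genes, 78 (17.2%) are in the table. Listed transcripts covered 4.20% to 5.18% of all TPM and summed to 1358215 to 1596467 estimated counts per library. The spliceosome share of these counts was between 0.685% (10485 counts, SH1 1) and 0.973% (14794, SH1 2), so that both extremes were SH1 libraries. Of 9 renal carcinoma markers 3 were in the table (PAX8, MET, CDH6), with a summed level of 3.48 to 4.70 FPKM in controls, 6.43 to 9.41 in SH1 and 7.20 to 14.3 in SH3. They did not go 1 way: CDH6 was at 0.78 to 1.08 FPKM in control, 0.23 to 0.35 in SH1 and 0.09 to 0.11 in SH3, and MET at 0.84 to 1.15, 1.40 to 2.53 and 4.23 to 5.95. In the averaged comparison edgeR called CDH6 lower (log2 fold change -2.42, adjusted p = 0.0237) and MET higher (1.62, adjusted p = 0.0312). Of 9 markers of other cell types only CD68 was, at 7.84 to 12.5, 13.2 to 17.8 and 12.7 to 14.1 FPKM. The part of these shifts in the results was not tested.

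Sequences of U2AF1L5 show what separates transcripts of 1 gene, and why reads can be shared between loci. U2AF1L5 is a locus on the minus strand of chromosome 21 annotated as a copy of U2AF1, the small subunit of the factor that reads the end of the intron. Each of the 2 annotated U2AF1L5 coding sequences (720 bases) differed at 0 positions from its U2AF1 counterpart, so a read in it cannot be assigned to 1 locus. The coding sequences are those of GENCODE release 29. The 2 forms differ from each other at 23 positions between coding bases 138 and 197. U2AF1L5-202 is paired with the listed transcript NM_001320648, and U2AF1L5-201 with another RefSeq name. The stretch lies in 3 coding exons at chr21:6487409-6495993 (GRCh38), written along the transcript, and capitals mark the differing bases:
U2AF1L5-202: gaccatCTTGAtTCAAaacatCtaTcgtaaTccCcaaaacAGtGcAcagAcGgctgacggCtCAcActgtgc
U2AF1L5-201: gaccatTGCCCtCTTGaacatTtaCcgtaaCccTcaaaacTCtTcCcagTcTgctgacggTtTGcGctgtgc
HSPA1A, an HSP70 chaperone listed in the pathway, has a like neighbour: its coding sequence of 1923 bases differs from that of HSPA1B at 4 positions.

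**Figure D1:**
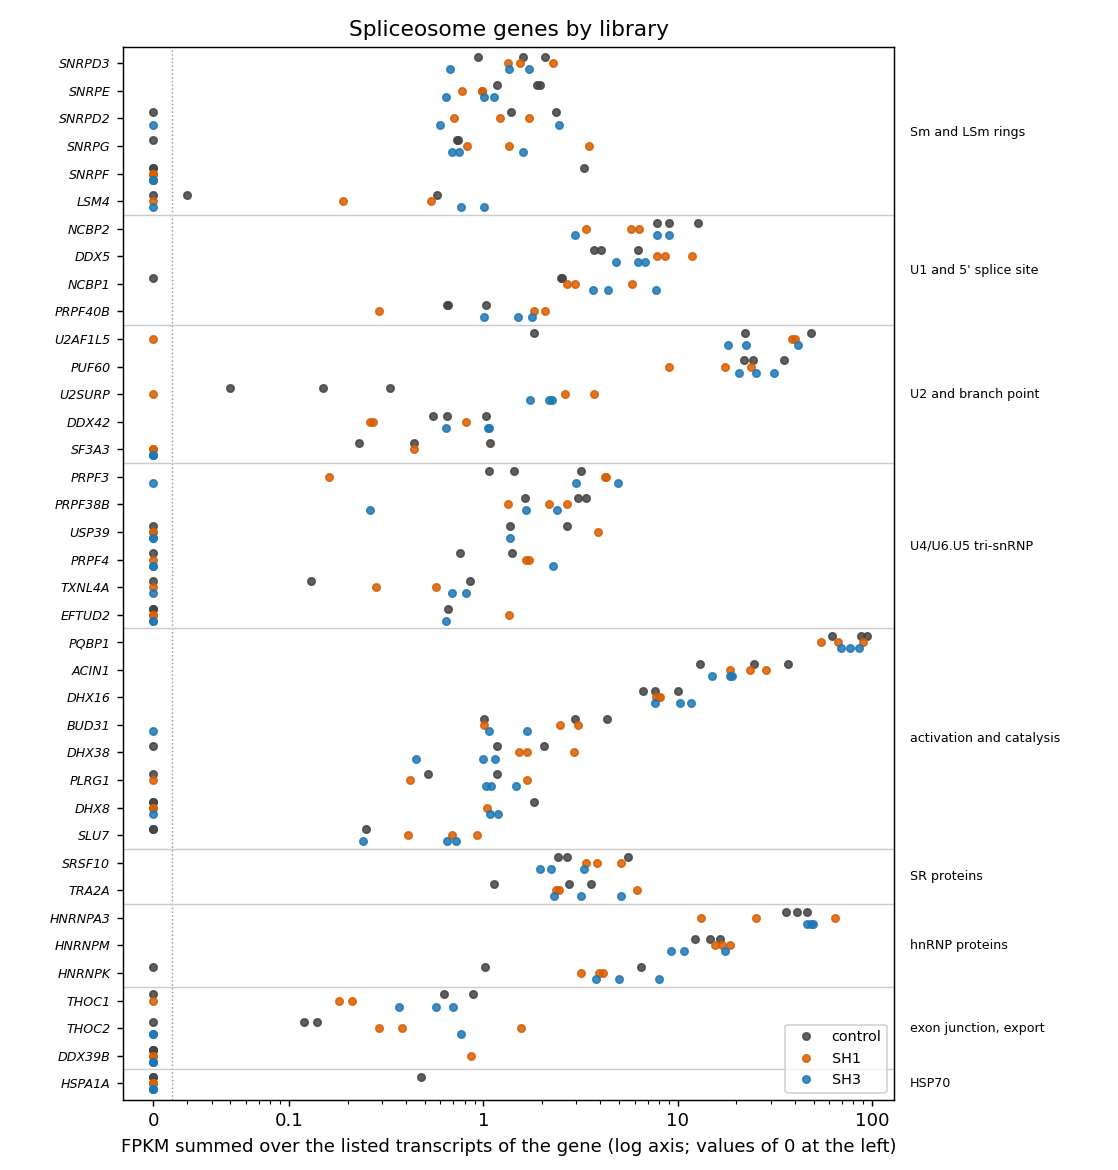
Summed FPKM of 38 of the 41 spliceosome genes (log axis, values of 0 drawn at the left edge) in the 3 control, 3 SH1 and 3 SH3 libraries, 1 point per library, grouped by role. Most genes lie under 10 FPKM, many have a library at 0, and the colours mix in most rows.

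Levels were low and uneven. The mean over 9 libraries ranged from 0.0533 FPKM (HSPA1A) to 76.3 FPKM (PQBP1), with a median of 1.45. A mean of at least 10 FPKM was reached by 6 genes, which held 73.9% of the summed spliceosome level, and 14 were under 1 FPKM. Only 11 genes had at least 100 estimated counts in every library, and 23 were at 0 in at least 1. The summed level of all 41 was 256, 298 and 291 FPKM in the controls, 199, 313 and 278 in SH1, and 249, 319 and 270 in SH3. These ranges overlap. In bulk RNA, fewer cells of a kind and less RNA per cell cannot be told apart.

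No spliceosome gene passed the edgeR quasi-likelihood test with Benjamini-Hochberg adjustment over all gene sums. Of the 41 genes, 38 passed the filter on low counts and were tested; DDX39B, HSPA1A and SNRPF, each with counts in 1 library only (25.03 in SH1 1, 22.3 and 21.7 in control 1), were not. In SH1 against control 0 of 38 were called, while 2.14% of all 6398 tested sums were. SH3 against control gave 0 of 38 beside 0.406% of all sums. For both knockdown groups averaged against control it was 0 of 38 beside 1.08%, and for SH3 against SH1 0 of 38 beside 1.36%. SH1 and SH3 share their control libraries, so the comparisons with control are not independent.

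Looser readings gave few members too. At an unadjusted edgeR p under 0.05, 2 of 38 sums passed in SH1 against control (11.5% of all sums), 2 in SH3 against control (8.41%), 3 in the averaged comparison (10.2%) and 1 in SH3 against SH1 (10.8%). Each member share was under the background. DESeq2 called 0, 1, 0 and 0 members in these comparisons, beside 7.24%, 4.02%, 5.63% and 6.46% of all sums. On log2(FPKM + 1), limma called 0 members in each, beside 2.55%, 0.875%, 1.55% and 2.14%.

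The median absolute log2 fold change of the 38 sums was 0.51 in SH1 against control (0.58 for all sums) and 0.53 in SH3 against control (0.52 for all). A change over 1 on the log2 scale was fitted for 23.7% of the members in SH1 (30.5% of all sums) and 26.3% in SH3 (26.2%). The signed median log2 fold change was -0.05 in SH1 against control (all sums -0.03), 0.00 in SH3 against control (-0.03), -0.15 in the averaged comparison (-0.07) and 0.01 in SH3 against SH1 (0.00). In SH1 17 were higher and 21 lower than in control; in SH3 19 were higher and 19 lower. Libraries of the compared groups did not overlap in FPKM for 7 of 38 sums in SH1 against control (20.2% of all sums), 5 in SH3 against control (17.4%), 2 when all 6 knockdown libraries were set against control (6.33%) and 5 in SH3 against SH1 (22.4%).

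The intervals were wide. For the 38 sums the median distance from the estimate to the end of its 95% interval was 3.04 on the log2 scale in SH1 against control, against 1.75 for all sums, and 3.05 in SH3 against control. A change of 2-fold or more in either direction lay outside the interval for 6 genes in SH1, among them SRSF10, ACIN1, HNRNPM and DHX16, and for 5 in SH3, among them PQBP1, DDX5, HNRNPM and DHX16. For the other genes the interval did not exclude a change of that size. The lack of a call there is not a sign that there was none. DHX16, a helicase of the activation step, had an interval from -0.69 to 0.37 in SH1 and from -0.35 to 0.71 in SH3.

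**Figure D2:**
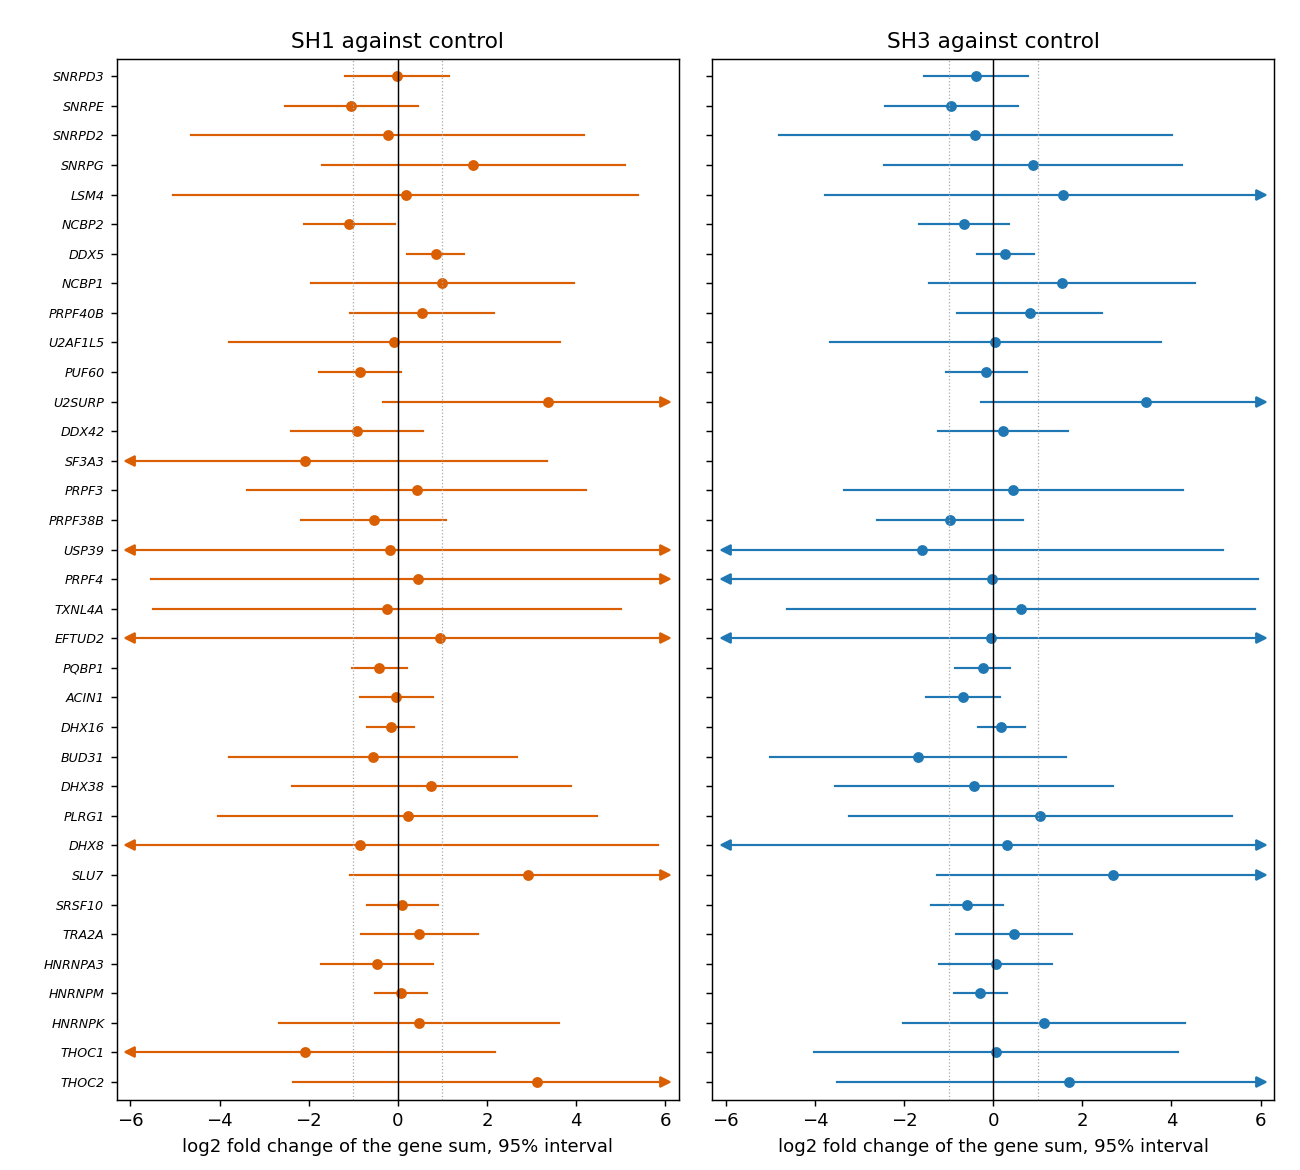
Log2 fold change of 35 gene sums with the 95% interval, for SH1 (left) and SH3 (right) against control, with genes in the order of their roles; arrowheads mark intervals that run past the axis, and dotted lines a 2-fold change. Nearly all intervals cross 0; SF3A3 is not drawn in SH3, where all its counts were 0.

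The group of U1 partners and the cap-binding complex has 7 members, all 7 tested, with 0 called by edgeR in any comparison. It held the 2 lowest p of the sums in SH1 against control, those of DDX5 and NCBP2. DDX5 (Gene ID 1655), an RNA helicase that helps release U1 from the 5′ splice site, was at 3.70, 4.03 and 6.26 FPKM in control, 11.9, 8.58 and 7.83 in SH1 and 6.79, 4.81 and 6.25 in SH3. SH1 lay above both other groups with no overlap. Its log2 fold change in SH1 against control was 0.85 ± 0.28 (SE; edgeR unadjusted p = 0.0158, adjusted p = 0.255). Without control 1 and SH1 1, on which the table was selected, it was 0.55 with an adjusted p of 0.633. SH3 against SH1 gave -0.57 ± 0.28 (adjusted p = 0.536, edgeR).

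NCBP2, the cap-binding subunit that grips the 5′ cap, read 12.8, 7.83 and 9.01 FPKM in control, 5.71, 6.31 and 3.38 in SH1 and 7.81, 9.04 and 2.96 in SH3. SH1 was below control in every library, and SH3 overlapped it. NCBP2 has 1 listed transcript, so a difference of at least 2-fold between control 1 and SH1 1 is given by the selection of the table. In SH1 the log2 fold change was -1.09 ± 0.44 (edgeR adjusted p = 0.404) and in the averaged comparison -0.87 ± 0.37 (edgeR adjusted p = 0.485). Its partner NCBP1 was at 2.55, 2.52 and 0 FPKM in control against 2.70 to 5.79 in SH1 and 3.68 to 7.73 in SH3. NCBP1 was 1 of the 2 sums whose 6 knockdown libraries all lay on 1 side of the controls, but with control 3 at 0 its averaged log2 fold change of 1.28 ± 1.16 had an edgeR adjusted p of 0.87. PRPF40B, a U1-associated protein, had an averaged log2 fold change of 0.68 ± 0.62.

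In the Sm and LSm rings, which clasp the spliceosomal RNAs, 6 genes were members, 5 were tested and 0 were called. SNRPD3 had the highest sum over listed transcripts, at 0.94, 1.59 and 2.07 FPKM in control, 2.29, 1.54 and 1.34 in SH1 and 1.71, 1.36 and 0.67 in SH3, with full overlap. SNRPE read 1.89, 1.95 and 1.17 FPKM in control, 0.78, 0.98 and 0.98 in SH1, and 1.01, 1.13 and 0.64 in SH3. All 6 knockdown libraries lay under the 3 controls. SNRPE has 1 listed transcript, so its difference between control 1 (54.72 estimated counts) and SH1 1 (22.45) is given by the selection of the table. The averaged log2 fold change of SNRPE was -0.99 ± 0.54 (edgeR adjusted p = 0.621), on 19.1 to 57.4 estimated counts per library. SNRPG was at 0 to 0.74 FPKM in control, 0.82 to 3.50 in SH1 and 0.69 to 1.59 in SH3, and its averaged log2 fold change was 1.29 ± 1.32. SNRPG too has 1 listed transcript, so its difference between control 1 (0 estimated counts) and SH1 1 (36.9) is given by the selection.

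Among 5 genes of U2 and the branch point, all were tested and 0 called. U2AF1L5 was at 1.81, 48.2 and 22.2 FPKM in control, 0, 38.5 and 40.0 in SH1 and 18.1, 41.4 and 22.5 in SH3. Control 1 and SH1 1 stood low against the other 7 libraries, and its identity with U2AF1 in coding sequence leaves the count uncertain. U2AF1L5 has 1 listed transcript, so its difference between control 1 (31.6 estimated counts) and SH1 1 (0) is given by the selection of the table. PUF60, which binds the polypyrimidine tract before the 3′ splice site, read 21.8, 35.3 and 24.4 FPKM in control, 9.06, 23.9 and 17.4 in SH1 and 20.7, 25.2 and 31.3 in SH3. Its log2 fold change in SH1 was -0.85 ± 0.40 (edgeR adjusted p = 0.480). The PUF60 sum holds 11 listed rows, of which 5 are further copies in the annotation. Whether copies had a part in its values was not tested.

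U2SURP, a U2-associated protein, had 7.50, 21.6 and 47.1 estimated counts in control, 376, 0 and 547 in SH1 and 328, 255 and 322 in SH3. SH3 lay above control in every library, but SH1 2 was at 0, and the averaged log2 fold change of 3.40 ± 1.52 had an edgeR adjusted p of 0.516. U2SURP has 1 listed transcript, so its difference between control 1 and SH1 1 is given by the selection of the table. SF3A3, a subunit of the SF3A complex, had 22.04, 11.98 and 53.4 estimated counts in control, 0, 0 and 22.5 in SH1 and 0 in all 3 SH3 libraries. With a floor of 3 counts over the group, SF3A3 was at least 29.1-fold lower in SH3 than in control on unscaled counts, with an edgeR adjusted p of 0.541. Without control 3 this bound was 11.3-fold. Only NM_001320830 is listed for SF3A3, so this is a statement on 1 transcript. DDX42, a helicase that binds SF3B, overlapped between all groups, at 0.26 to 1.07 FPKM.

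The U4/U6.U5 tri-snRNP group had 6 members, 6 tested and 0 called, at means of 0.294 to 2.47 FPKM. PRPF3, a U4/U6 protein, was at 1.07, 1.44 and 3.18 FPKM in control, 4.21, 4.25 and 0.16 in SH1 and 4.94, 2.99 and 0 in SH3, so that 1 library of each knockdown group was near or at 0. PRPF38B, needed before activation, read 3.38, 3.06 and 1.63 FPKM in control, 2.69, 1.34 and 2.18 in SH1, and 0.26, 2.40 and 1.65 in SH3. In the averaged comparison their log2 fold changes were 0.44 ± 1.45 and -0.76 ± 0.59. USP39, PRPF4, TXNL4A and EFTUD2 were each at 0 in at least 1 library of every group.

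The largest group, with 8 members for activation and catalysis, had 8 tested and 0 called. PQBP1 (Gene ID 10084), a polyglutamine-binding protein tied to the U5 protein TXNL4A, had the highest sum over listed transcripts, 7 in number, at 62.4, 94.5 and 87.4 FPKM in control, 54.4, 66.8 and 89.6 in SH1 and 68.8, 85.8 and 76.8 in SH3. The groups overlapped, and the log2 fold change was -0.41 ± 0.27 in SH1 and -0.24 ± 0.27 in SH3. ACIN1, an exon junction partner, read 24.7, 12.9 and 37.0 FPKM in control, 18.5, 28.5 and 23.5 in SH1 and 15.1, 19.1 and 18.6 in SH3, and SH3 gave -0.68 ± 0.36 (edgeR adjusted p = 0.679). SLU7, a second-step factor, was low but higher in SH1 (0.41 to 0.93 FPKM) than in control (0 to 0.25), with an averaged log2 fold change of 2.80 ± 1.61 (edgeR adjusted p = 0.658). It has 1 listed transcript, so its difference between control 1 (17.35 estimated counts) and SH1 1 (63.42) is given by the selection of the table. DHX38, the helicase PRP16, was lower in SH3 (0.45 to 1.15 FPKM) than in SH1 (1.52 to 2.92) without overlap.

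Both SR genes were tested and 0 were called. SRSF10 (Gene ID 10772), an SR protein that represses splicing when dephosphorylated, was at 5.51, 2.42 and 2.68 FPKM in control, 5.12, 3.86 and 3.38 in SH1 and 3.30, 1.95 and 2.23 in SH3. SH3 lay under SH1 in every library, by -0.69 ± 0.35 on the log2 scale (edgeR adjusted p = 0.560). TRA2A, a Transformer-2 homologue, read 3.56, 1.14 and 2.74 FPKM in control, 2.36, 6.18 and 2.44 in SH1 and 2.30, 5.13 and 3.17 in SH3, which overlap.

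Of the 3 hnRNP genes, 3 were tested and 0 called. HNRNPA3 (Gene ID 220988) was at 46.2, 36.0 and 41.1 FPKM in control, 13.2, 64.2 and 25.3 in SH1 and 49.7, 48.1 and 46.1 in SH3. SH1 held both the lowest and the highest library, with a mean of 34.2 ± 26.6 (SD, n = 3) beside 48.0 ± 1.81 in SH3. HNRNPM, which also binds intronic sites, overlapped between groups, at 16.4, 14.7 and 12.3 FPKM in control, 18.6, 15.6 and 16.8 in SH1 and 10.7, 17.6 and 9.27 in SH3. Its log2 fold changes were 0.07 ± 0.25 in SH1 and -0.29 ± 0.25 in SH3.

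In the exon junction and export set, THOC1 and THOC2, subunits of the THO complex that couples transcription to export, were tested and 0 were called. THOC1 had 0 to 36.6 estimated counts per library. THOC2 had 16.6, 13.8 and 0 in control, 51.6, 33.1 and 220 in SH1 and 0, 0 and 108 in SH3, so that SH3 3 and SH1 3 carried most of the signal.

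**Figure D3:**
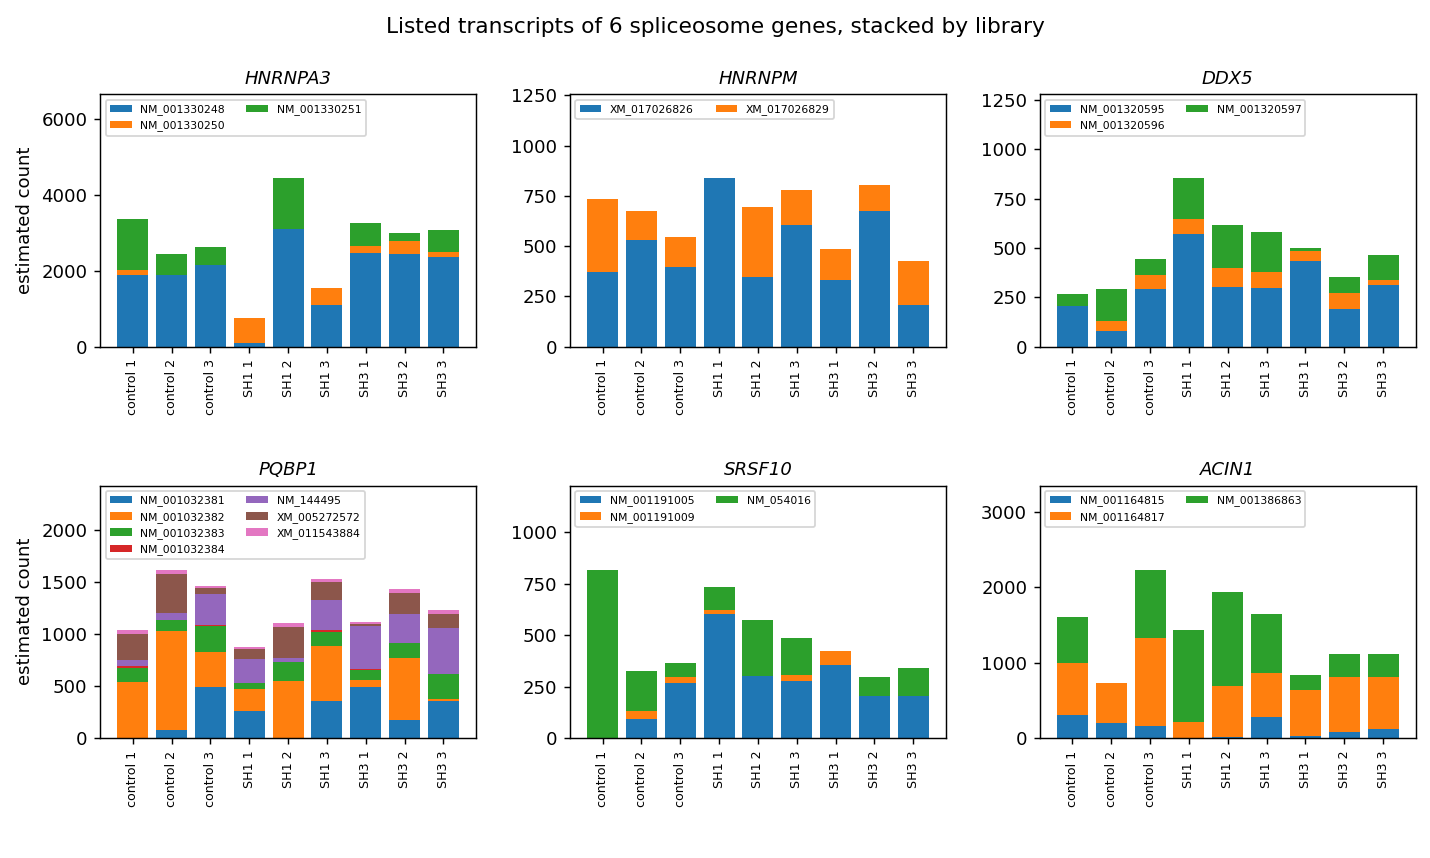
Estimated counts of the listed transcripts of HNRNPA3, HNRNPM, DDX5, PQBP1, SRSF10 and ACIN1, stacked per library, so that the bar height is the gene sum. The make-up of a bar changes between libraries of 1 group: HNRNPA3 in SH1 1 is led by another transcript than in SH1 2, and SRSF10 in control 1 by another than in control 3. Control 1 and SH1 1 are the libraries on which the table was selected.

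Single transcripts of these genes swung more than the sums, within groups as well as between them. Control and SH1 each hold a library on which the table was selected, control 1 and SH1 1. The median coefficient of variation of spliceosome transcripts was 91.3% in control, 85.2% in SH1 and 61.3% in SH3. For all transcripts it was 87.7%, 86.7% and 84.0%. The part of the selection in this spread was not tested. HNRNPA3 shows such swings in the SH1 group. NM_001330248 had 105, 3109 and 1086 estimated counts in SH1 1, 2 and 3, while NM_001330250 had 657, 0.06 and 451. In control the first was steady at 1893, 1885 and 2150, and the second had 130, 0 and 6.91. The third, NM_001330251, read 1331, 556 and 463 in control, 4.60, 1323 and 0.05 in SH1 and 587, 225 and 593 in SH3. The averaged log2 fold changes of the 3 transcripts were -0.16 ± 0.71, 2.54 ± 2.02 and -0.85 ± 1.58, beside -0.21 ± 0.47 for the sum. The coefficient of variation within groups, averaged over the 3 groups, was 77.6% for the 3 transcripts and 36.5% for the sum. For DHX16, with 9 tested rows, it was 83.5% and 18.5%. All of these rows but NM_001164239 are further copies of DHX16 transcripts placed elsewhere in the annotation. Reads divided between copies could add to the DHX16 spread, which was not tested.

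PQBP1, ACIN1, SRSF10, DDX5 and TRA2A had like swings. The main PQBP1 transcripts ran from 28.2, 48.6 and 18.2 FPKM in control to 3.63, 30.8 and 0.93 in SH3 for NM_001032382, and from 4.45, 4.81 and 22.4 to 30.5, 20.9 and 32.3 for NM_144495. Their averaged log2 fold changes were -1.05 ± 0.89 and 0.82 ± 0.80, opposite in sign, and none of the PQBP1 transcripts was called. In ACIN1, NM_001386863 had 609, 0 and 908 estimated counts in control, 1222, 1248 and 771 in SH1 and 203, 302 and 302 in SH3. SRSF10 was carried by NM_054016 in control 1 (819 of 819 counts) and mostly by NM_001191005 in SH1 1 (603 of 737). The table was selected on differences of at least 2-fold between these libraries, so a swing between them is given by the selection. The 3 DDX5 transcripts all had positive log2 fold changes in SH1 against control (0.91 ± 0.64, 0.93 ± 1.60 and 0.94 ± 0.96), each with a larger error than the sum's 0.28. TRA2A transcript XM_017012090 was at 0, 0.96 and 0 FPKM in control and 0.89 to 2.36 in the 6 knockdown libraries, which overlap.

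**Figure D4:**
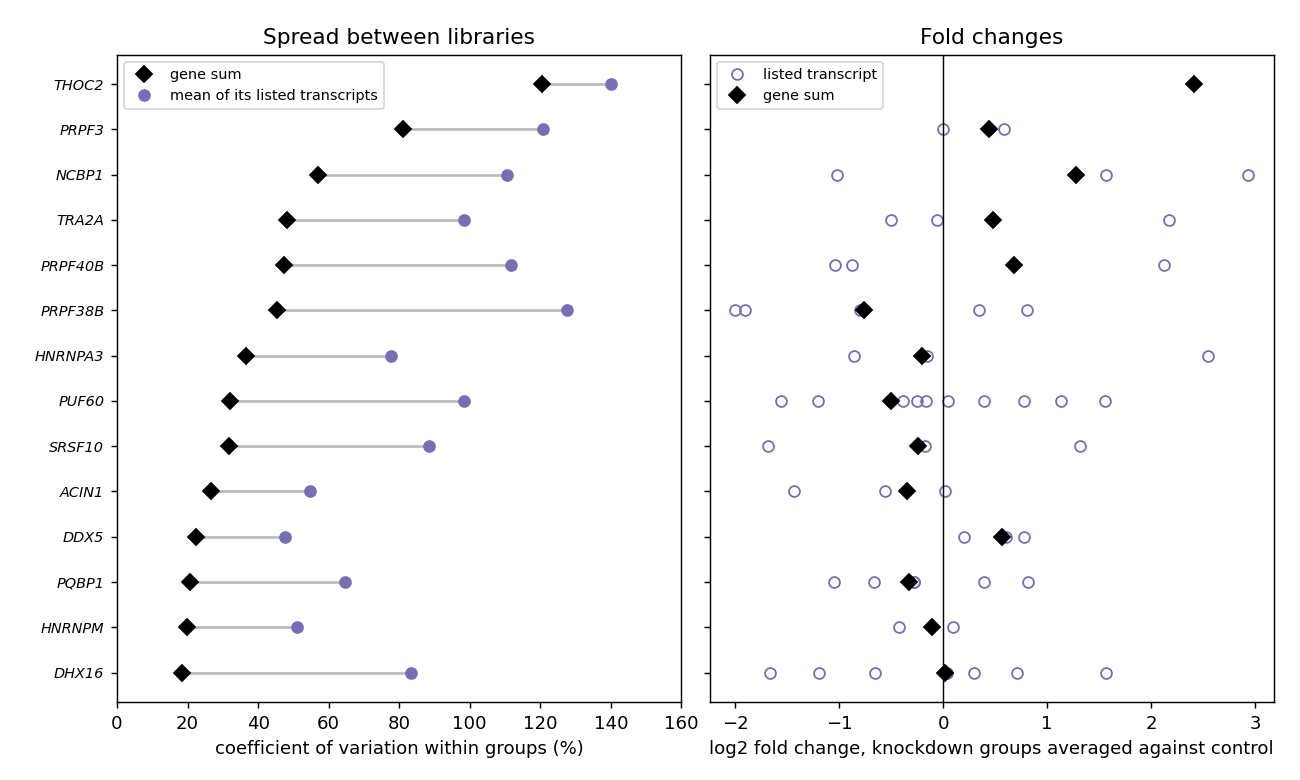
Left, coefficient of variation within groups (%) of the gene sum and the mean of its listed transcripts, for 14 of the 17 genes with several tested transcripts; right, log2 fold changes of sum and transcripts in the averaged comparison, leaving out transcripts with no counts in a group. The sum varies less in every gene shown, and transcripts of 1 gene lie on both sides of 0 in most.

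Over the genes with several tested transcripts, the sum had the lower coefficient of variation in 17 of 17, and in 98.2% of 3743 genes of the whole table. The medians were 32.1% for sums and 91.8% for transcripts in the spliceosome, and 36.7% and 95.1% in all genes. Adding parts that vary separately lowers this coefficient by arithmetic alone, so the order itself says little. Transcripts of 1 gene had opposite signs in the averaged comparison in 13 of 17 genes (76.5%) and in 74.5% of all genes. Among genes with counts in at least 2 libraries, the transcript with the most counts was the same in every library that had any for 0 of 18 members and for 10.7% of 4304 genes of the table.

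Counts of 0 were common. Of the 105 transcripts, 86 (81.9%) were at 0 in at least 1 library, as were 81.7% of all transcripts, and 6 had at least 50 counts in every library. In all 3 libraries of a group 20 (19.0%) were at 0, against 23.3% of all. Of these, 4 had counts in every library of another group, which is 3.81% of the 105 against 5.32% of all transcripts. They were SF3A3 NM_001320830, PUF60 NM_001362897 and 2 DHX16 copies. PUF60 NM_001362897 had 30.3, 6.42 and 77.5 counts in control and 0 in all SH1 libraries, at least 38.1-fold lower against the 3-count floor over the group, or 12.2-fold without control 3. No transcript was at 0 throughout 1 group with at least 100 counts in each library of another.

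At the level of transcripts, edgeR called none of the 89 tested. In SH1 against control it was 0 of 89 beside 0.131% of 17495 transcripts, and in SH3 against control 0 beside 0.0286%. The averaged comparison gave 0 beside 0.12%, and SH3 against SH1 0 beside 0.0972%. Unadjusted, 4, 1, 3 and 3 of 89 had an edgeR p under 0.05, beside 7.83%, 5.87%, 7.37% and 6.25% of all. With limma it was 0 in each, beside 0.223%, 0.0857%, 0.171% and 0.234%.

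DESeq2 called 2, 1, 1 and 1 of the 89, beside 2.81%, 2.05%, 2.62% and 2.32% of all transcripts. The THOC2 transcript XM_017029663, called in all but SH3 against SH1, had 0 counts in all controls, 51.6, 0 and 220 in SH1 and 0, 0 and 108 in SH3. It was thus at 0 in 3 of 6 knockdown libraries as well, and was at least 90.7-fold higher in SH1 than in control and 35.9-fold in SH3 against the floor. Without SH1 3 the first bound was 17.2-fold; the second rests on SH3 3 alone, without which SH3 was at 0 too. On the same transcript edgeR gave adjusted p of 0.635 in SH1 and 0.822 in SH3 against control.

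Each transcript was also tested against the rest of its gene, which was possible for 68 of the 105. Of these, 0 were called in each comparison, beside 0.0403%, 0.0134%, 0.0134% and 0.0202% of 14887 transcripts in SH1 against control, SH3 against control, the averaged comparison and SH3 against SH1. Unadjusted, 4, 0, 2 and 3 had p under 0.05 (7.81%, 6.6%, 7.85% and 6.7% of all). They included a PUF60 transcript and further copies of DHX16 transcripts.

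Wider lists of splicing genes were read the same way. The 9 role lists name 147 genes, of which 46 are in the table, and edgeR called 0 of their sums and transcripts in each comparison. Of 62 splicing regulators outside the pathway 39 are in the table. No sum was called by edgeR in the 4 comparisons, beside 2.14%, 0.406%, 1.08% and 1.36% of all sums. Of the 256 transcripts tested, 1 was called in SH1 against control, SH3 against control and the averaged comparison, beside 0.131%, 0.0286% and 0.12% of all. That transcript, SYNCRIP XM_017010177, of an RNA-binding hnRNP-like protein, was at 0 FPKM in the 3 controls, 4.82, 5.67 and 2.43 in SH1 and 6.48, 6.01 and 5.95 in SH3 (edgeR adjusted p = 0.0027 and 0.0065). The SYNCRIP sum was 12.1, 6.68 and 9.25 FPKM in control, 10.7, 9.33 and 7.98 in SH1 and 6.89, 7.63 and 6.11 in SH3, with adjusted p of 0.955 and 0.410. Unadjusted, 6, 5, 5 and 4 of the 39 regulator sums had an edgeR p under 0.05 in the 4 comparisons, beside 11.5%, 8.41%, 10.2% and 10.8% of all sums. DESeq2 called 2, 2, 2 and 1 of these sums (7.24%, 4.02%, 5.63% and 6.46% of all) and 9, 8, 12 and 7 of the 256 regulator transcripts tested (2.81%, 2.05%, 2.62% and 2.32% of all). The minor spliceosome (2 of 12 genes in the table) and the SMN complex that assembles Sm rings (8 of 16) had 0 edgeR calls. Over the whole table the share called by edgeR was 0.406% to 2.14% of sums and 0.0286% to 0.131% of transcripts. In SH1 against control DESeq2 called 0 SMN genes. In SH3 against control, the averaged comparison and SH3 against SH1 it called 1 of 8 SMN sums each, beside 4.02%, 5.63% and 6.46% of all sums, and 2, 1 and 1 of 15 SMN transcripts, beside 2.05%, 2.62% and 2.32%.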

How the data were processed

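RNA of 9 Caki-1 libraries was measured in 1 deposited table with 4 columns per library. The authors' deposited estimated count (an expected count) was rounded for the tests, the deposited FPKM gave levels, and the deposited TPM gave the share of a library. The deposited normalized read count is a signal on a linear scale and was only checked. It equals the estimated count rounded up over 1 factor per library in 100% of values. Per the submitters' processing notes the build is mm10, whereas 20900 of 20909 transcripts carry gene numbers of the human RefSeq table, so values were read as human. Aligner, counter and strand setting are not given in the sources used here, and library depth is unknown: the listed counts are part of each library. Without strand, reads of a gene and an antisense partner cannot be told apart.

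Counts were summed per gene number. edgeR 4.0.16 (R 4.3.3; TMM, filterByExpr with a minimum count of 10, robust quasi-likelihood test) fitted all 9 libraries with a mean per group, for sums and for transcripts, and diffSpliceDGE set each transcript against its gene. Adjustment was by Benjamini-Hochberg over all features, with a threshold of 0.05; SE is the log2 fold change over the square root of F. Alternatives were DESeq2 1.42.0, limma 3.58.1 on log2(FPKM + 1), other scaling and filters, curated transcripts only, no further copies, fits of only the groups compared, a replicate block, and fits without single libraries or without control 1 and SH1 1. Fits were tested on simulated data with less spread than most features here have, which gives no measure of power for these libraries. A count of 0 in a whole group was set to 3 counts over the group; such bounds cover counting error only. Coefficients of variation use transcripts that passed the filter, and sums over these, in groups with a mean count above 0. Medians of the coefficient in a single group use transcripts with a mean scaled count of at least 10 there. Replicate numbers were not used as pairs. Sequences are from GENCODE 29 (GRCh38); listed RefSeq transcripts were matched to it through its RefSeq pairing.

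Members and lists were chosen with earlier results of these data known. Named genes were those with a call, the 2 with the highest summed FPKM of each role, the lowest p of sums in the averaged comparison (6) and in SH3 against SH1 (4), the 6 with the widest range of transcript changes, and transcripts at 0 in a whole group with 100 counts in each library of another. NCBP1, SNRPG, SLU7, DHX16, DHX38 and others beyond this rule were named after their values were seen, as were the transcripts shown in detail. Some members that this rule takes are not reported here by name, and are left out of the plots; they remain in all counts.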

Additional observations from a re-analysis of the deposited data

How the results depend on the processing

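Counts of called spliceosome sums, of called transcripts and of transcripts called against their gene were recomputed under up to 20 settings, and 224 of 229 values were within 1.5 times the value given, which was 0 each time. The other 5 came from the DESeq2 Wald test: 1 sum in SH3 against control and 2, 1, 1 and 1 transcripts in SH1 against control, SH3 against control, the averaged comparison and SH3 against SH1; the cause was not tested. Leaving out each library in turn gave 0 calls in all 12 counts (from 0 to 0), as did leaving out control 1 and SH1 1 together. Of 272 values for the named sums, 271 kept direction and side of the threshold, and 1 passed it with DESeq2. DDX5 in SH1 against control ran from 0.55 to 1.12 (adjusted p 0.0539 to 0.633), NCBP2 from -1.29 to -0.83 (0.214 to 0.694), and the averaged U2SURP from 1.26 to 4.17 (0.0813 to 0.701). SF3A3 in SH3 against SH1 had a value in 18 of the 20 settings. Among those without a value was the fit without SH1 replicate 3, since both groups were then at 0. With the replicate number as a replicate block, 0 members were called in all 12 counts; deviations of same-numbered libraries correlated between -0.07 and 0.08, and 1 of 9 libraries correlated best with its own number in both other groups, so the numbers give no pairing. For the averaged comparison, fitting only the groups compared is the fit already given. Low counts limit most genes: 30 of 41 have under 100 estimated counts in some library.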
